A study of Camelus bactrianus with 10 samples.

Results

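The muscle miRNAs miR-1, miR-133a, miR-133b, miR-206, miR-208a, miR-208b, miR-499 and miR-499a were followed in small RNA of plasma exosomes, vesicles shed by cells and carried in blood, from Bactrian camels. The rule for members used names and no values. Every entry of the deposited table that carried one of these numbers was kept, with either arm and any end change or substitution note, which gave 10 of 2581 entries. The samples came from 5 thin camels, which weighed 403 to 421 kg, and from 5 normal camels, which weighed 452 to 493 kg, with 1 plasma sample and 1 library per camel. The labels describe no treatment, and they give neither age nor sex. The protocol in the labels speaks of 9 libraries, whereas labels and table give 10, which was not settled here. The series' title links such exosomes with hepatocellular carcinoma, and no tumour sample was analysed here.

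MiR-1 and miR-133a are cut from separate hairpins of shared primary transcripts in skeletal and heart muscle, while miR-206 and miR-133b form a similar pair made mainly in skeletal muscle. MiR-208a, miR-208b and miR-499 lie within introns of the myosin heavy chain genes MYH6, MYH7 and MYH7B and follow the heart and slow muscle fibres in which those genes are used. These roles are known from human and mouse. In blood, all of them are used as markers of muscle or heart damage, since other tissues make little of them.

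The sequences show which members can be told apart. They are given 5′ to 3′ as the table lists them, as DNA letters, with the seed (bases 2 to 8), the stretch that selects target messages, in capitals.
hsa-miR-1-3p: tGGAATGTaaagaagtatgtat
hsa-miR-206: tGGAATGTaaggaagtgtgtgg
hsa-miR-133a-3p_R+1: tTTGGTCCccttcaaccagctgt
hsa-miR-133b_R-1: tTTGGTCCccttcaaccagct
hsa-miR-208a-3p: aTAAGACGagcaaaaagcttgt
hsa-miR-208b-3p: aTAAGACGaacaaaaggtttgt
hsa-miR-499a-5p: tTAAGACTtgcagtgatgttt
MiR-1-3p and miR-206 shared their seed and 18 of 22 bases, differing from miR-1-3p to miR-206 by A11G, A17G, A21G and T22G, with positions counted from 1 at the 5′ end. MiR-208a-3p and miR-208b-3p shared their seed and 19 of 22 bases, with G10A, A16G and C18T from miR-208a-3p to miR-208b-3p. MiR-499a-5p shared bases 2 to 7 with miR-208b-3p and differed from it in base 8 (G8T). The miR-133b entry had lost 1 base at its right end, and all of its 21 bases equalled the first 21 of the miR-133a-3p entry, so its origin between these miRNAs is uncertain. The remaining 3 members were miR-499a-3p, miR-133a-5p and an 18-base entry named for the 3p arm of a miR-133a precursor, hsa-mir-133a-2-p3_1ss9GT. That entry did not hold the mature miRNA: its first 4 bases equalled the last 4 of the miR-133a-3p entry, and its name records the substitution G9T.

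The deposited values were normalized counts, as the authors' column headers call them, and library totals lay between 532999 and 757352. Low values within a library moved in steps of fixed size, and each total held between 505263 (thin 2) and 4474902 (normal 5) such steps. A step is at most 1 read, because 395 of 523 entries listed in 5 or more libraries held only even numbers of steps. The shallowest library was thin 2, and the deepest were thin 4, normal 4 and normal 5. Almost no value lay below 5 steps, which is 5.27 normalized counts in thin 2 and 0.825 in normal 4, so a value of 0 means fewer than about 5 steps. Normal 4 and normal 5 stood apart: of the 48 entries whose name notes a change of G to T at base 9, they held 43 and 39, against 4 to 10 in each other library. Red blood cell miRNAs made up 14.4 ± 3.47% of thin and 25.0 ± 5.68% of normal libraries, platelet miRNAs 7.52 ± 1.63% and 6.32 ± 1.34%, and liver miRNAs 4.65 ± 3.43% and 6.40 ± 4.22% (SD, n = 5 each). The red blood cell list held miR-451, miR-451a, miR-144, miR-486, miR-16 and miR-92a. The platelet list held miR-223, miR-126, miR-191 and miR-197, and the liver list miR-122, miR-192 and miR-194.

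Muscle miRNAs were a small part of these libraries. All 10 entries together made up 0.0845%, 0.174%, 0.0888%, 0.0889% and 0.0940% of thin 1 to 5, and 0.0696%, 0.0711%, 0.0829%, 0.0866% and 0.0861% of normal 1 to 5. The means were 0.106 ± 0.0380% in thin and 0.0793 ± 0.00829% in normal camels (SD, n = 5 each), and no test was made of this sum. Thin 2 lay far above the rest, and without it the thin mean exceeded the normal mean by 0.00978 percentage points in place of 0.0267. Thin 1 lay below normal 4 and normal 5, so the groups overlapped. In plasma, more vesicles from muscle and more of a miRNA per vesicle cannot be told apart.

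The 5 members at 10 or more normalized counts in at least 5 libraries were miR-499a-5p, miR-1-3p, miR-208b-3p, miR-133a-3p and miR-206. A miRNA read covers the whole molecule, so their values were compared without scaling by length. How evenly the libraries captured different miRNAs was not tested, so the order below is one of normalized counts and not of molecules. MiR-499a-5p had the highest mean over all libraries, 386 normalized counts, and ranked 131 of 2581 entries. It exceeded miR-1-3p in 9 of 10 libraries, by 2.70 ± 1.47 on the log2(value + 1) scale (SD of the difference over libraries). MiR-1-3p and miR-208b-3p, with means of 80.0 and 72.7, did not differ beyond their spread: miR-1-3p was the higher in 5 of 10 libraries, with a log2 difference of -0.14 ± 1.19. MiR-208b-3p exceeded miR-133a-3p (mean 34.7) in 9 of 10 libraries by 1.04 ± 1.17, a mean difference smaller than its SD. MiR-133a-3p exceeded miR-206 (mean 25.8) in 8 of 10, by 2.07 ± 2.08. All values of miR-499a-5p, miR-1-3p, miR-208b-3p and miR-206 were even numbers of steps. MiR-133a-3p had 4 odd values and 2 that were not whole, so in this respect its level relative to the others is less certain.

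MiR-1-3p, which in mouse favours muscle differentiation, had 59.2, 346, 48.1, 51.6 and 58.7 normalized counts in thin 1 to 5, against 30.4, 67.5, 17.0, 85.5 and 36.1 in normal 1 to 5. Thin 2 was several times higher than any other camel, and the other 4 thin camels lay within the range of the normal ones. The means were 113 ± 130 in thin and 47.3 ± 28.3 in normal camels (SD, n = 5 each). The log2 fold change was 0.94 ± 0.64 (SE; limma adjusted p = 0.609). Its 95% interval ran from -0.44 to 2.32, that is from 0.735-fold to 5.00-fold. Without thin 2 the thin mean was 54.4 ± 5.43 (SD, n = 4), and the log2 fold change was 0.41 (limma adjusted p = 0.904).

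MiR-206, which in mouse acts at the nerve-muscle contact and in regenerating fibres, had 18.1, 129, 18.7, 7.83 and 0 normalized counts in thin 1 to 5, against 0, 0, 0, 71.3 and 13.6 in normal 1 to 5. It was listed above 0 in 4 thin and 2 normal libraries, thin 2 was highest, normal 4 came next, and the groups overlapped. Each of its 6 values above 0 exceeded 5.27, the value of 5 steps in the shallowest library. The log2 fold change was 1.74 ± 1.54 (SE; limma adjusted p = 0.721), with a 95% interval from -1.60 to 5.07. This value depends on how zeros enter the scale: it was 2.11 with a pseudocount of 0.5 and 0.68 with a pseudocount of 10. It was 0.92 without thin 2, 2.67 without thin 5, 2.78 without normal 4 and 3.74 without normal 4 and normal 5. With sample quality weights it was 0.13, and on the table of summed names these weights turned it to -0.09.

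MiR-133a-3p, which in mouse represses the muscle regulator SRF, had 24.7, 77.0, 44.4, 32.6 and 26.2 normalized counts in thin 1 to 5, against 10.8, 31.1, 12.8, 56.8 and 30.5 in normal 1 to 5. Thin 2 was again highest and normal 4 next, and the 2 lowest values were those of normal 1 and normal 3. The means were 41.0 ± 21.6 in thin and 28.4 ± 18.5 in normal camels (SD, n = 5 each). The log2 fold change was 0.63 ± 0.59 (SE; limma adjusted p = 0.731; 95% interval -0.66 to 1.91). It was 0.37 without thin 2, 0.36 without normal 1 and 1.15 without normal 4 and normal 5.

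**Figure D1:**
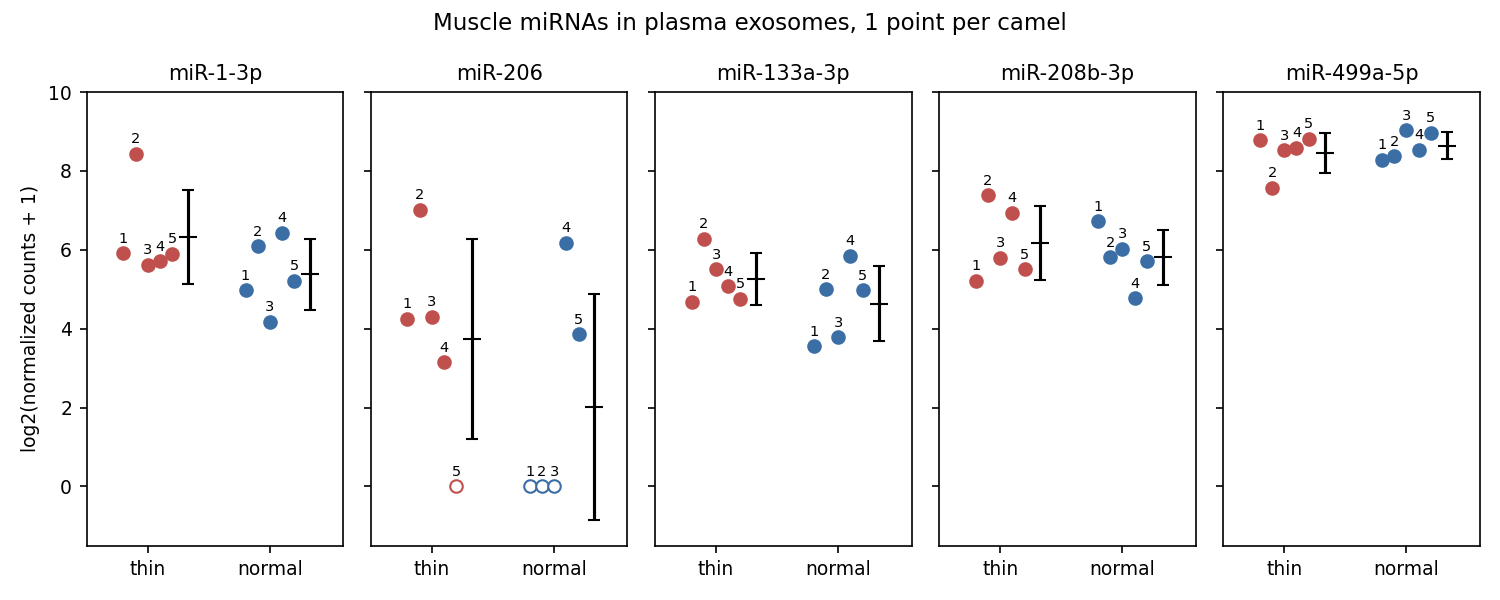
Levels of the 5 tested muscle miRNAs on the log2(normalized counts + 1) scale, with 1 numbered point per camel, thin left and normal right in each panel. Open points are values of 0, and bars give the mean and SD of the log2 values. Thin 2 is the highest point of miR-1-3p, miR-206, miR-133a-3p and miR-208b-3p and the lowest of miR-499a-5p.

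MiR-208b-3p, carried by MYH7, a myosin gene of heart and slow fibres, had 36.2, 167, 54.8, 122.1 and 44.4 normalized counts in thin 1 to 5, against 105, 55.4, 64.4, 26.4 and 51.4 in normal 1 to 5. Thin 2 and thin 4 were highest, normal 4 was lowest, and the groups overlapped. The means were 84.9 ± 57.0 in thin and 60.5 ± 28.6 in normal camels (SD, n = 5 each). The log2 fold change was 0.36 ± 0.54 (SE; limma adjusted p = 0.829; 95% interval -0.81 to 1.52). The direction turned, to -0.02, without normal 4 and normal 5, and the value was 0.05 without thin 2 and 0.60 without thin 1.

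MiR-499a-5p, from an intron of MYH7B, had 439, 189.9, 368, 383 and 450.7 normalized counts in thin 1 to 5, against 310.0, 330.4, 521, 371 and 499.1 in normal 1 to 5. Thin 2, the highest camel for the other 4 members, was here the lowest, and the other 4 thin camels lay within the normal range. The means were 366 ± 105 in thin and 406 ± 97.4 in normal camels (SD, n = 5 each). The log2 fold change was -0.18 ± 0.30 (SE; limma adjusted p = 0.848), and its 95% interval from -0.83 to 0.48, or 0.561-fold to 1.39-fold, was the narrowest of the 5. Without thin 2 it turned to 0.04, and with equal library totals to 0.01, a rescaling that shifted the median of all tested entries to 0.17.

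None of the 5 tested members passed an adjusted p of 0.05 with limma, none had an unadjusted p under 0.05, and in none were the groups apart. Over all 468 tested entries 1.92% passed the adjusted threshold, 11.8% had an unadjusted p under 0.05, and in 3.63% the groups did not overlap. The log2 fold change was above 0 in 4 of the 5 members, against 49.4% of all tested entries, and its median was 0.63 over the members and -0.01 over all. These members share a library that was high for 4 of them, so the 4 are not separate observations. Summing all entries of 1 mature name left the fold changes of the 5 as they were, since each name had 1 entry, and again none passed, against 1.64% of 428 summed names.

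**Figure D2:**
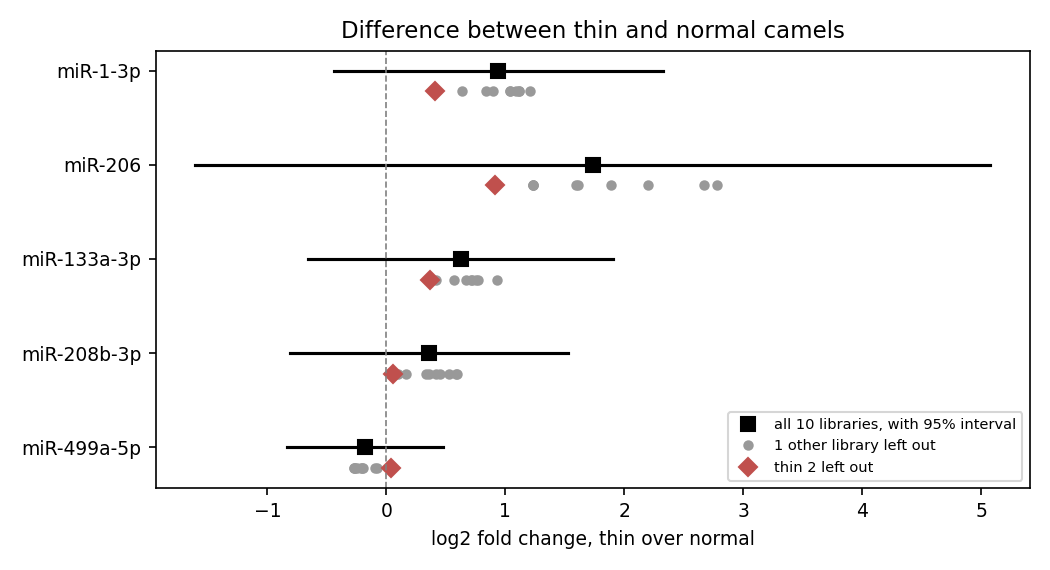
Log2 fold changes of the 5 tested muscle miRNAs, thin over normal. Squares and lines give the limma estimate with its 95% interval over 10 libraries, grey points the estimates with 1 other library left out, and diamonds those without thin 2. All intervals include 0, and for miR-1-3p, miR-206 and miR-208b-3p the value without thin 2 (0.41, 0.92 and 0.05) is the lowest of those leaving out 1 library.

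The other 5 members did not reach 10 normalized counts in 5 libraries and were not tested. Each was listed in 2 or 3 libraries, at values from 5 to 32 steps. MiR-208a-3p, the heart-specific member in mouse, was listed at 8.22 in thin 1 and 2.30 in thin 4, against 2.31 in normal 4, and at 0 in the other 7 libraries. The miR-133b entry was listed at 4.90 in thin 3 and 2.46 in thin 4, against 5.31 in normal 5. Neither value in thin camels was a whole number of steps. MiR-499a-3p, the opposite arm of the member with the highest mean, was listed at 0 in all thin camels, against 6.63 in normal 3 and 2.98 in normal 5. MiR-133a-5p was listed at 5.27 in thin 2, against 1.49 in normal 4. The miR-133a precursor entry was listed at 12.7 in thin 2, against 6.63 in normal 3 and 1.65 in normal 4. No member had both arms above 0 in all libraries, so the balance of arms could not be compared. Several of these values lay under the 5-step value of shallower libraries, where a like value could be listed as 0. The part of depth in their presence was not tested.

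Thin 2 differed from the other camels in the makeup of its muscle miRNAs and not in their amount alone. MiR-499a-5p made up 75.0%, 20.5%, 68.3%, 63.6% and 77.7% of the muscle total in thin 1 to 5, against 68.0%, 68.2%, 82.9%, 60.2% and 78.1% in normal 1 to 5. MiR-1-3p made up 37.4% of the muscle total in thin 2 and 2.71% to 13.9% in the 9 other libraries. MiR-206 made up 13.9% in thin 2 and 11.6% in normal 4, and at most 3.48% elsewhere. MiR-208b-3p took 18.0% in thin 2 and 20.3% in thin 4, against 23.02% in normal 1, and its lowest share, 4.28%, was in normal 4. Red blood cell, platelet and liver miRNAs made up 13.8%, 7.89% and 4.12% of thin 2, each within the range of the other thin libraries. Thin 2 was also the shallowest library, and the part of depth in its muscle values was not tested. These values rested on 328 steps for miR-1-3p, 158 for miR-208b-3p and 180 for miR-499a-5p.

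**Figure D3:**
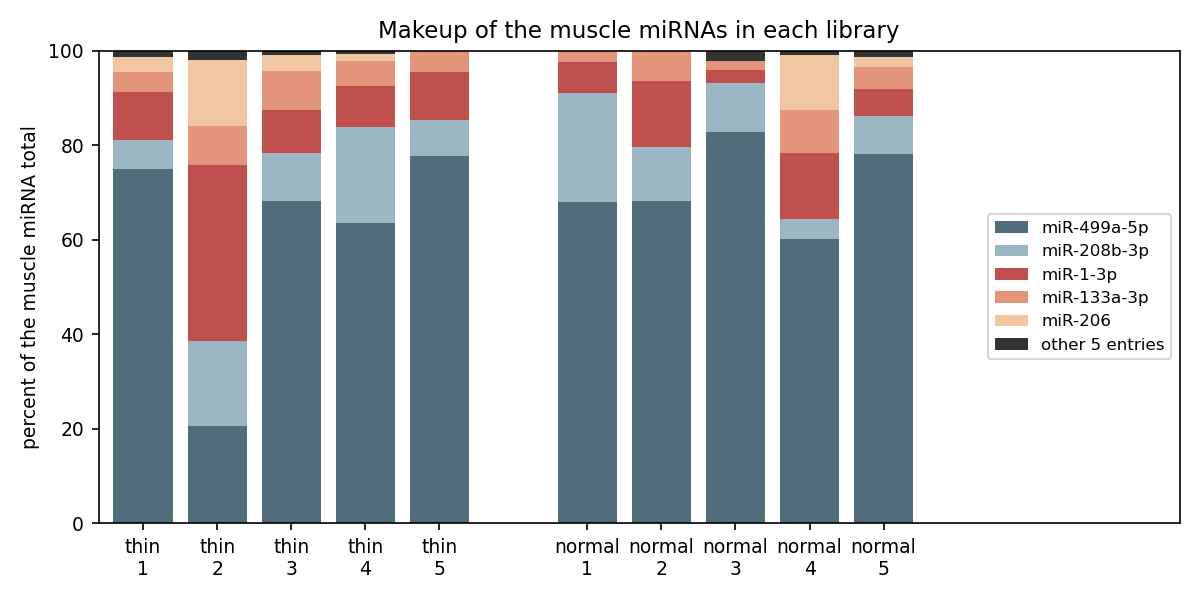
Share of each muscle miRNA in the muscle total of every library, in percent, thin camels left and normal camels right. MiR-499a-5p is the largest part in 9 libraries, at 60.2% or more, while in thin 2 miR-1-3p is larger, at 37.4% against 20.5%.

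Whether the members varied together between camels was described by correlations of their deviations from group means on the log2(value + 1) scale, over 10 libraries and 10 pairs of members. These points share libraries and their depth. The permutations shuffled deviations across both groups and took no account of the group means removed. Their p, also where called exact, is therefore approximate and can be too small. MiR-1-3p and miR-133a-3p, the pair from shared primary transcripts, had Pearson r = 0.80 (permutation p = 0.00416, adjusted p = 0.0245) and Spearman rho = 0.71 (permutation p = 0.0272, adjusted p = 0.157). Without the 2 libraries farthest from the median of miR-1-3p, thin 2 and normal 4, r was 0.55 (exact permutation p = 0.156), so the strength of the relation rests on those libraries. It was 0.76 without thin 2 alone (exact permutation p = 0.0175) and 0.81 within the 7 shallower libraries (exact permutation p = 0.0399). The 3 deepest are too few for a value of their own. Here and below, values without thin 2 alone or within the 7 shallower libraries used group means of the libraries kept. Values without the 2 farthest libraries used the group means of all 10 libraries.

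MiR-206 and miR-133a-3p had r = 0.79 (permutation p = 0.00729, adjusted p = 0.0245) and rho = 0.69 (permutation p = 0.0313, adjusted p = 0.157). Without thin 5 and normal 4, the libraries farthest from the median of miR-206, r was 0.72 (exact permutation p = 0.0461), and within the 7 shallower libraries it was 0.59 (exact permutation p = 0.224). For miR-1-3p and miR-206, which share a seed but not a primary transcript, r was 0.62 (permutation p = 0.0549, adjusted p = 0.131) and rho 0.55 (permutation p = 0.108, adjusted p = 0.270), and r was -0.02 without thin 2 and normal 4.

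The members hosted by myosin genes were paired in the same way. MiR-208b-3p had r = 0.19 with miR-1-3p (permutation p = 0.605, adjusted p = 0.757) and rho = -0.03 (permutation p = 0.946, adjusted p = 0.946), and this r was -0.54 without thin 2 (exact permutation p = 0.130) but 0.69 within the 7 shallower libraries (exact permutation p = 0.0802). MiR-208b-3p and miR-499a-5p, both of slow fibres, had r = -0.60 (permutation p = 0.0653, adjusted p = 0.131) and rho = -0.41 (permutation p = 0.248, adjusted p = 0.413), with r = -0.55 without thin 2 and normal 4 (exact permutation p = 0.158), -0.27 without thin 2 (exact permutation p = 0.471) and -0.87 within the 7 shallower libraries (exact permutation p = 0.0161). MiR-499a-5p had r = -0.80 with miR-1-3p (permutation p = 0.00735, adjusted p = 0.0245) and rho = -0.61 (permutation p = 0.0654, adjusted p = 0.218). Without thin 2 and normal 4 that r was -0.53 (exact permutation p = 0.204), and without thin 2 alone it was -0.46 (exact permutation p = 0.216). Within the 7 shallower libraries, which include thin 2 but not normal 4, it was -0.89 (exact permutation p = 0.00972), so the strength of the relation rests on thin 2. Of the 10 pairs, 3 passed by Pearson's r after adjustment and none by Spearman's rho.

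**Figure D4:**
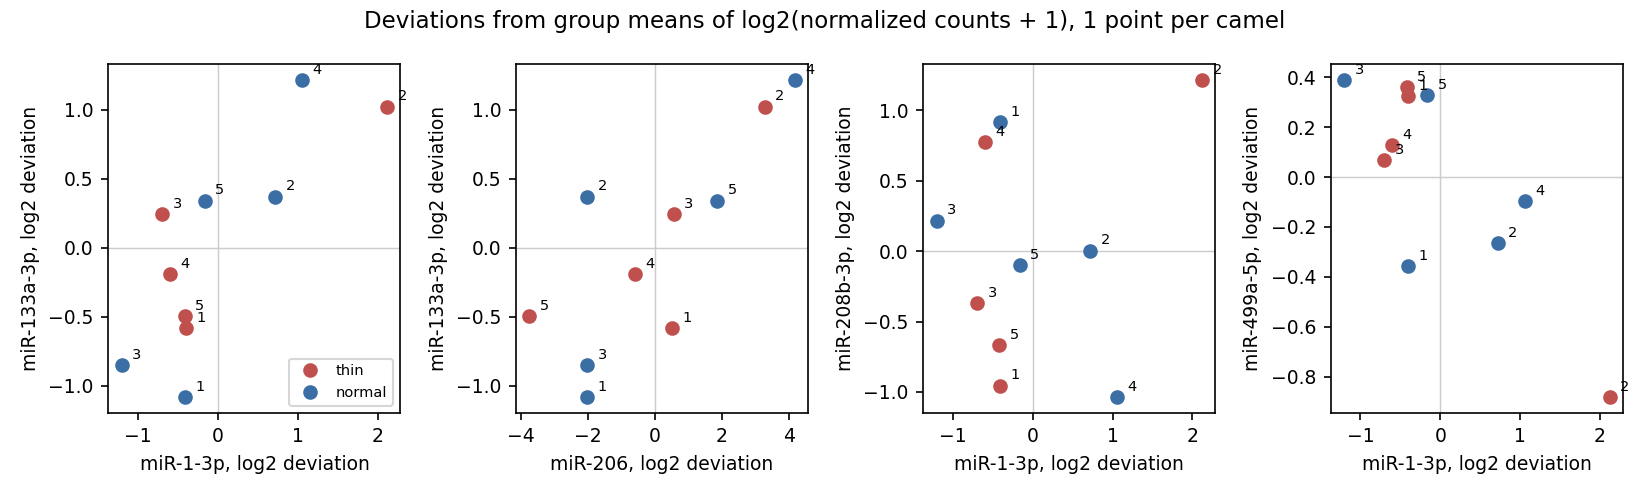
Deviations from group means on the log2(normalized counts + 1) scale for 4 pairs of muscle miRNAs, with 1 numbered point per camel. MiR-133a-3p goes up with miR-1-3p (r = 0.80) and with miR-206 (r = 0.79), miR-208b-3p shows little relation with miR-1-3p (r = 0.19), and miR-499a-5p runs against miR-1-3p (r = -0.80), with thin 2 at the end of that panel.

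The ratio of miR-133a-3p to miR-1-3p does not depend on library scaling. On the log2 scale it was -1.26, -2.17, -0.12, -0.66 and -1.17 in thin 1 to 5, against -1.497, -1.12, -0.42, -0.59 and -0.24 in normal 1 to 5. The means were -1.08 ± 0.76 in thin and -0.77 ± 0.52 in normal camels (SD, n = 5 each), a difference of -0.30 (two-sided exact permutation p = 0.5 over 252 splits, where the smallest possible p is 0.00794). MiR-1-3p had the higher normalized counts of the pair in all 10 libraries. In steps, miR-133a-3p had 4 odd values and 2 that were not whole, while all values of miR-1-3p were even. Which of the pair was the more abundant is therefore not certain. Without thin 2 the difference was -0.03.

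Other miRNAs known to act on muscle differentiation or vascular muscle were counted beside the members. Of 31 numbers on this list 26 were tested, with 42 entries, of which none rose, 1 fell and 41 did not pass, against 1.28% that rose and 0.641% that fell among all 468 tested. The one that fell was miR-486, which is enriched in muscle and is also a main miRNA of red blood cells: it averaged 17064 ± 4217 normalized counts in thin and 45680 ± 12220 in normal camels (SD, n = 5 each). Its log2 fold change was -1.41 ± 0.24 (SE; limma adjusted p = 0.00735). The red blood cell miRNAs as a whole, which include it, also made up less of the thin libraries (above), and their part in this difference was not tested. The median log2 fold change of the list was -0.02, against -0.01 over all tested entries, with 21 entries above and 21 below 0. Its most abundant other entries were miR-26a-5p (log2 fold change -0.12 ± 0.25, SE), miR-29a-3p (0.55 ± 0.35), miR-27b-3p (-0.04 ± 0.29) and miR-221-3p (0.79 ± 0.24), with limma adjusted p from 0.157 to 0.975.

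The small RNAs whose deviations were most like those of miR-1-3p, among 423 summed names outside the muscle members, were miR-9-5p, miR-338-3p and miR-378. The member miR-133a-3p, with r = 0.80 (above), was not among these candidates. MiR-9-5p had r = 0.87 (permutation p = 0.00285, adjusted p = 0.730) and rho = 0.65 (permutation p = 0.0482). It was at 474 normalized counts in thin 2, 23.2 to 46.6 in the other thin camels and 15.4 to 44.0 in normal camels, and its r was 0.38 without thin 2 and normal 4, so it rests on those libraries. MiR-338-3p had r = 0.78 (permutation p = 0.00820, adjusted p = 0.730) and rho = 0.90 (permutation p = 0.000790), with r = 0.79 without thin 2 and normal 4. MiR-378, which is also on the list above, had r = 0.74 (permutation p = 0.0119, adjusted p = 0.730) and rho = 0.78 (permutation p = 0.00997), with r = 0.78 without these libraries. MiR-378 averaged 28.1 ± 9.27 in thin and 9.62 ± 4.46 in normal camels (SD, n = 5 each; limma adjusted p = 0.331), with 16.6 as the lowest thin and 13.8 as the highest normal value. None of the 423 passed by Pearson's r after adjustment. The permutation p of each rho was not adjusted, and these names were picked for the highest r among the 423.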

How the data were processed

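Per the labels' protocols, exosomes were pelleted from plasma by ultracentrifugation, RNA was extracted with the mirVana kit, TruSeq small RNA libraries were sequenced on an Illumina HiSeq instrument, and reads were filtered with ACGT101-miR. Not given in the sources used here are the mapping reference, the miRBase version and the scaling. The signal deposited was normalized counts, per the file headers, in 1 column per camel. The table also had 2 empty lines. The study design text gives 2 groups of 5.

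The members and lists were chosen with earlier results of these data known. Names were parsed by dropping the species prefix and what follows the first _ sign. A step was the most frequent gap between low values of a library, and 98.8% to 99.9% of values up to 200 steps were whole multiples within 0.02. How many steps make 1 read was not settled, so no count test was run, the depth in reads is unknown, and no counting intervals are given. In the check of even numbers the tolerance was 0.05 of a step, up to 600 steps. Values were taken as log2(value + 1), which understates changes of low entries, for the 468 entries at 10 or more in at least 5 libraries. Thin was set against normal on all of them with limma 3.58.1 (R 4.3.3, spread trended on the mean, no covariates), and p was adjusted by Benjamini-Hochberg over all, with a threshold of 0.05. The method was tested on data simulated with a normal spread for each entry. That simulation held no library that stood out, no limit of listing and no differences in depth, so it does not cover these features. Ratios were compared by exact permutation, and correlations by 100000 permutations, or by all orders for 9 libraries or fewer. For correlations these took no account of the group means removed, so their p is approximate. Named were all members, called entries and the 5 most abundant of the muscle list, and the 3 small RNAs outside the members most correlated with miR-1-3p. Python 3.11.15, numpy 2.4.6 and pandas 2.3.3 were used. Alternatives were other pseudocounts, filters, scalings, weights, a replicate block and libraries left out.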

Additional observations from a re-analysis of the deposited data

Results flagged for a closer look

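Of 23 groups of 5 libraries examined, 11 held a library whose gap to its nearest neighbour was large against the range of the group. Chance gives about 1 in 20 for values with a normal spread, a rate that does not hold for values with many zeros: in 5 of the 11 the other 4 libraries were all listed at 0, and 5 of the 11 concern thin 2. Thin 2 stood above the other thin camels for miR-1-3p (346 normalized counts, next 59.2), for miR-206 (129, next 18.7), for the miR-133a precursor entry (12.7, others 0), for miR-133a-5p (5.27, others 0) and for the muscle share of the library (0.174%, next 0.0940%). Thin 1 stood above the other thin camels for miR-208a-3p (8.22, next 2.30). Normal 4 stood above the other normal camels for miR-206 (71.3, next 13.6), for miR-208a-3p (2.31, others 0) and for miR-133a-5p (1.49, others 0). Normal 3 did so for the miR-133a precursor entry (6.63, next 1.65), and normal 5 for the miR-133b entry (5.31, others 0). Where the others are listed at 0, they can hold up to about 5 steps, which is 0.825 to 5.27 normalized counts depending on the library.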

How the results depend on the processing

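None of the 5 tested members passed under any of 22 alternatives, while 3 to 15 of all tested entries did. On the summed names no member passed either, while 1 to 18 of all tested names did. MiR-1-3p and miR-133a-3p kept their direction throughout, with log2 fold changes from 0.41 to 1.39 and from 0.25 to 1.19 over entries and summed names; miR-206, which could not be tested at 10 or more in all libraries, ranged from 0.13 to 3.89 over entries. MiR-208b-3p turned to -0.0199 without normal 4 and normal 5 and to -0.21 without these and thin 4. MiR-499a-5p turned to 0.0065 with equal library totals and to 0.041 without thin 2, and with 1 library left out ranged from -0.270 to 0.0410. MiR-206 on the summed table turned to -0.0929 with sample quality weights. The cause was not tested. The difference in the log2 ratio of miR-133a-3p to miR-1-3p stayed between -0.54 and -0.03 with 1 library left out, and that in muscle share between 0.00978 and 0.0321 percentage points. Of 5 pairs of same-numbered libraries, 3 deviated together by over 0.1 (r from -0.20 to 0.52). Of the 5 thin libraries, 2 correlated best with their own number. No test was made of this, and 5 pairs are too few to decide whether the numbers pair the camels. With a replicate block, 0 members were called and the ratio had exact p = 0.438, where 5 pairs cannot reach 0.05. Adding the precursor entry to miR-133a-3p, chosen after seeing the data, called none. Members near 5 steps cannot be compared at this depth. Arm ratios and shares of a leading entry gave no value under any setting, since no member had both arms above 0 in all libraries and each name had 1 entry.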

Other observations

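A predicted small RNA that is no member by name, PC-3p-59758_91, carried the seed of miR-1-3p and miR-206, given here in capitals because it was the only other entry of the table with that seed.
PC-3p-59758_91: tGGAATGTagagaagtgtgtgt
It differed from miR-206 by A10G, G11A and G22T and from miR-1-3p by A10G, A17G and A21G, counted from the 5′ end. It was listed at 15.7 normalized counts in thin 4, against 21.8, 10.9 and 7.30 in normal 3, normal 4 and normal 5, and at 0 in the other 6 libraries, among them thin 2, where miR-206 was highest. It was picked for its seed after its values were seen.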
